A study of Rattus norvegicus with 7 samples.

Results

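The adrenergic receptor genes Adrb1, Adrb3, Adra1a, Adra1b, Adra1d, Adra2a and Adra2b were examined in isolated alveolar type 2 cells of rats fed ethanol or a control diet. Type 2 cells are the lung epithelial cells that make and secrete surfactant. The genes were taken by symbol, as every probe set to which the platform's annotation gave exactly 1 of these 7 symbols. This gave 10 probe sets for 7 genes, out of 8740 probe sets tested and 4736 genes named on the array. Other members of the receptor family were not analysed here. Male Sprague Dawley rats took a Lieber-DeCarli liquid diet for 6 weeks, with 36% of calories as ethanol in the ethanol group (3 animals) and an isocaloric diet free of ethanol in the control group (4 animals). Type 2 cells were purified by immuno-adsorption, and the biotin-labelled RNA of each animal was measured on an Affymetrix expression array. The ages of the animals are not given in the sources used here. Array numbers in the titles run through all controls before the ethanol group, so diet and any effect of that order cannot be told apart. The numbers pass from 4, the last control, to 6, which is ethanol replicate 2. What the absent number stood for is not given in the labels.

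Adrenergic receptors are G protein-coupled receptors for adrenaline and noradrenaline. The β subtypes act mainly through the stimulatory G protein, adenylyl cyclase and cyclic AMP, the α1 subtypes through Gq and phospholipase C, and the α2 subtypes through Gi, which lowers cyclic AMP. In the alveolus, β-adrenergic stimulation is known to promote surfactant secretion by type 2 cells and the active sodium transport that clears fluid from the airspace.

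The deposited values are on a log2 scale, at 1 value per probe set and array. Array medians lay between 4.56 and 4.62, and no detection calls were used. The dim range of each array was therefore set by 201 probe sets of 116 genes typical of other organs, such as pancreatic, pituitary, muscle and brain genes. Its upper bound was the 95th percentile of these probe sets on that array, which lay between 5.98 and 6.18. A probe set counted as above the dim range where it exceeded the bound on all 7 arrays, as 10.0% of all probe sets did. Markers of the labelled cell type were bright. The surfactant protein genes Sftpc, Sftpb, Sftpa1 and Sftpd lay above the bound on all 7 arrays, with means of 10.00 to 12.71, and Nkx2-1, a lung epithelial transcription factor gene, on 5 of 7. Array control 2 stood apart on the first principal component, at 30.5 against -18.9 to 5.83 for the others. Some genes known from other lung cells were also bright on all 7 arrays. Lyz2, a lysozyme gene of macrophages that type 2 cells also express, had a mean of 11.70, Scgb1a1, the club cell secretoglobin gene, 9.26 and Ager, a marker of type 1 cells, 8.16. Other markers of these cells were dimmer. The club cell gene Cyp2f4 exceeded the bound on 6 arrays and the type 1 cell gene Pdpn on 3. The macrophage gene Csf1r and the type 1 cell genes Aqp5 and Cav1 exceeded it on 0.

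Signal above the dim range was found for 2 of the 7 receptor genes, Adra2a and Adra1d, and in each case for only 1 of the gene's probe sets. By probe set this was 2 of 10, beside 10.0% of all probe sets. Whether the 2 shares differ was not tested. Adrb1, Adrb3, Adra1a and Adra1b lay within the dim range on all 7 arrays, and Adra2b exceeded its bound on 1 array. None of the 10 probe sets passed the test between diets. In limma with Benjamini-Hochberg adjustment over all probe sets, 0 of 10 passed adjusted p under 0.05 and 0 of 10 were at unadjusted p under 0.05. Among all probe sets, 0.149% and 4.58% passed these thresholds. The control and ethanol values overlapped in all 10. The groups were separate in 5.24% of all probe sets, so 0 of 10 does not set the receptors apart. Log2 differences, ethanol minus control, ran from -0.30 to 0.11 with a median of 0.010, beside -0.0051 over all probe sets. Without control 2, the array that stood apart, 0 of 10 passed in limma. The differences were then -0.066 for Adrb1, -0.071 for Adrb3, 0.11 for Adra1a, -0.020 for Adra1b and -0.13 for Adra2b. For Adra1d they were -0.011 for AF071014mRNA_s_at and 0.12 for M60654_at, and for Adra2a they were 0.11 for U79031_at, 0.036 for S79778mRNA_s_at and -0.050 for M62372cds_s_at. The signs for Adrb1 and M62372cds_s_at are opposite to those with all arrays. In a bulk isolate such as this, fewer cells that carry a transcript and less of it per cell cannot be told apart.

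**Figure D1:**
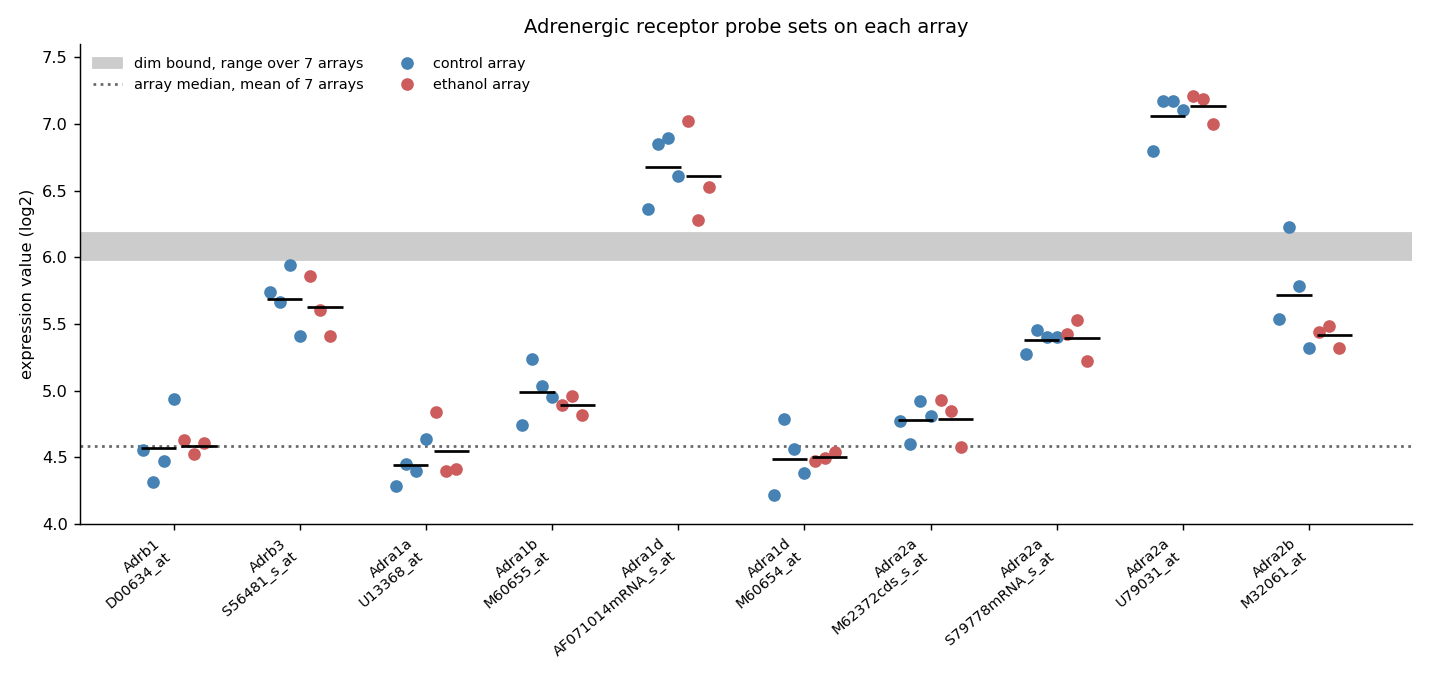
Log2 expression values of the 10 adrenergic receptor probe sets (horizontal axis) on 4 control arrays (blue) and 3 ethanol arrays (red). Black lines are group means, the grey band spans the upper bound of the dim range on the 7 arrays (5.98 to 6.18) and the dotted line is the mean array median. U79031_at of Adra2a and AF071014mRNA_s_at of Adra1d lie above the band on all arrays, and blue and red points overlap in every probe set.

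The β1 receptor gene Adrb1, whose product couples to the stimulatory G protein and is best known from the heart, was read by D00634_at. Its values were 4.55, 4.32, 4.47 and 4.94 in controls 1 to 4 and 4.63, 4.52 and 4.61 in ethanol 2, 3 and 4. The ethanol arrays lay inside the span of the controls, whose highest value was that of control 4. Means were 4.57 ± 0.265 (SD, n = 4) and 4.59 ± 0.057 (SD, n = 3), and the log2 difference was 0.018 (95% confidence interval -0.33 to 0.36, limma adjusted p = 0.995). The probe set ranked between the 39.3 and 60.8 percentile of the probe sets of an array, around its median. Of the other-organ probe sets, 79 had a higher mean. A level within the dim range does not show that the transcript is absent.

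The β3 receptor gene Adrb3, known mainly for lipolysis and heat production in adipose tissue, was read by S56481_s_at. The suffix _s_at marks a probe set whose probes match more than 1 transcript. Values were 5.74, 5.67, 5.94 and 5.41 in controls 1 to 4 and 5.86, 5.60 and 5.41 in ethanol 2, 3 and 4. The lowest control and the lowest ethanol array were level, and control 3 was the highest of all. The log2 difference was -0.063 (95% confidence interval -0.42 to 0.30, limma adjusted p = 0.974). This probe set came closest of the dim ones to the bound, with a mean of 5.66, and 22 other-organ probe sets had a higher mean.

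The α1 receptors raise intracellular calcium and contract vascular smooth muscle. Adra1a, encoding the α1A subtype, was read by U13368_at at 4.29, 4.45, 4.40 and 4.63 in controls 1 to 4 and at 4.84, 4.40 and 4.41 in ethanol 2, 3 and 4. Ethanol 2 was the highest array, and the other ethanol arrays lay among the controls. Its log2 difference of 0.11 was the highest of the 10 (95% confidence interval -0.23 to 0.44, limma adjusted p = 0.971), and it was -0.036 without ethanol 2. Adra1b, encoding the α1B subtype, was read by M60655_at at 4.74, 5.24, 5.03 and 4.95 in controls 1 to 4 and at 4.89, 4.96 and 4.82 in ethanol 2, 3 and 4. All 3 ethanol values fell between the lowest and the highest control. Its log2 difference was -0.10 (95% confidence interval -0.41 to 0.21, limma adjusted p = 0.971), and -0.020 without control 2, the highest control.

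Adra1d, encoding the α1D subtype, had 2 probe sets that gave different pictures of its level. AF071014mRNA_s_at lay at 6.36, 6.85, 6.90 and 6.61 in controls 1 to 4 and at 7.02, 6.28 and 6.53 in ethanol 2, 3 and 4, above the bound on every array and between the 87.4 and 94.2 percentile. The ethanol arrays held both the highest and the lowest of the 7 values. M60654_at, whose suffix does not mark shared probes, lay at 4.21, 4.79, 4.56 and 4.38 in the controls and at 4.47, 4.49 and 4.54 in the ethanol group, near the array median. The means of the 2 probe sets were 2.16 log2 units apart, and the gap was 1.79 to 2.55 on single arrays. The probe set above the bound is the one whose probes match more than 1 transcript, and which transcripts it reads was not tested. Neither probe set passed the test between diets, with log2 differences of -0.068 for AF071014mRNA_s_at (95% confidence interval -0.51 to 0.38, limma adjusted p = 0.980) and of 0.016 for M60654_at (-0.32 to 0.35, adjusted p = 0.995). The spread of AF071014mRNA_s_at within groups, with SDs of 0.247 (n = 4) and 0.378 (n = 3), exceeded its difference, which was -0.27 without ethanol 2 and 0.097 without ethanol 3.

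The α2 receptors lower cyclic AMP and, on sympathetic nerve endings, limit noradrenaline release. Adra2a, encoding the α2A subtype, had 3 probe sets, and U79031_at gave the brightest signal of all receptor probe sets. It lay at 6.80, 7.17, 7.17 and 7.10 in controls 1 to 4 and at 7.21, 7.19 and 7.00 in ethanol 2, 3 and 4. Apart from control 1, the lowest, the arrays of both groups stood within a narrow span. Means were 7.06 ± 0.177 (SD, n = 4) and 7.13 ± 0.117 (SD, n = 3), and the log2 difference was 0.072 (95% confidence interval -0.23 to 0.37, limma adjusted p = 0.971). The difference was -0.015 without control 1.

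The other Adra2a probe sets, S79778mRNA_s_at and M62372cds_s_at, both carry the suffix for shared probes and lay within the dim range. S79778mRNA_s_at read 5.27, 5.46, 5.40 and 5.40 in controls 1 to 4 and 5.42, 5.53 and 5.22 in ethanol 2, 3 and 4. M62372cds_s_at read 4.77, 4.60, 4.92 and 4.81 in the controls and 4.93, 4.85 and 4.58 in the ethanol group. In both, ethanol arrays held the lowest and the highest of the 7 values, with the controls between them. Their log2 differences were 0.011 (95% confidence interval -0.26 to 0.28) and 0.010 (-0.29 to 0.31), with limma adjusted p of 0.996 and 0.999. The mean of U79031_at was 2.31 log2 units above that of M62372cds_s_at, so the position of Adra2a relative to the dim range rests on U79031_at alone.

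Adra2b, encoding the α2B subtype, had the widest spread and the difference furthest from 0. M32061_at lay at 5.54, 6.22, 5.79 and 5.32 in controls 1 to 4 and at 5.44, 5.49 and 5.32 in ethanol 2, 3 and 4. The ethanol arrays were close together at the lower end of the controls, and control 2, which also stood apart over the whole array, was the only one above its bound, which was 6.17. Means were 5.72 ± 0.389 (SD, n = 4) and 5.41 ± 0.088 (SD, n = 3). The log2 difference of -0.30 (SE 0.198, 95% confidence interval -0.75 to 0.14) did not pass (limma adjusted p = 0.967). It was -0.13 without control 2 and -0.44 without control 4, the lowest control.

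**Figure D2:**
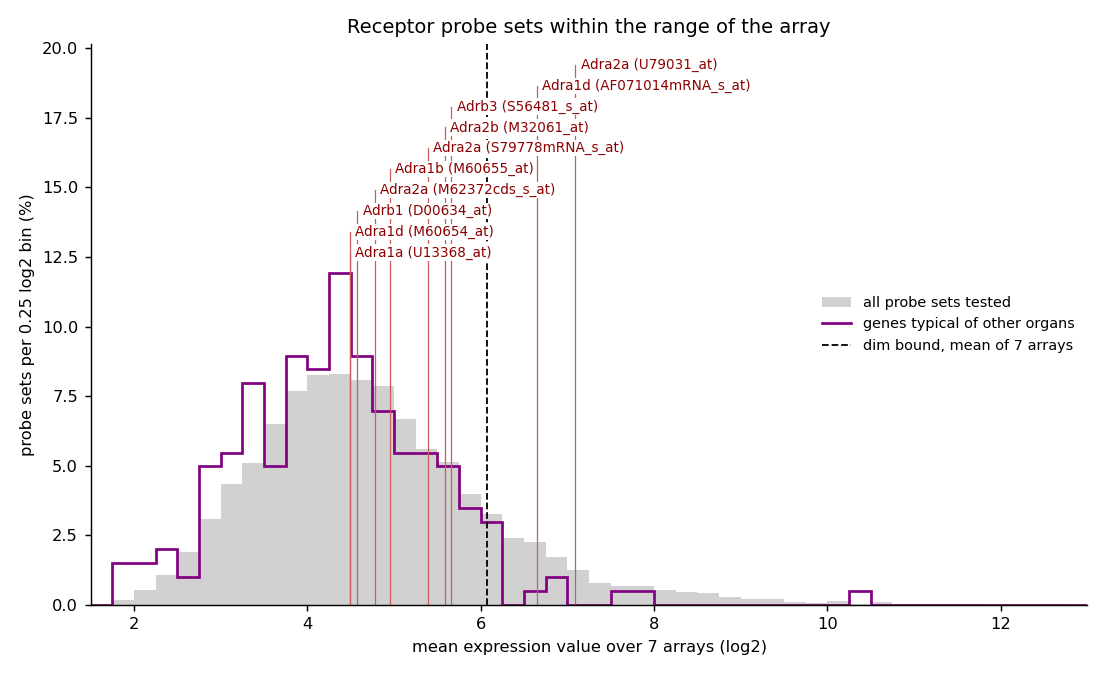
Mean log2 expression value over 7 arrays (horizontal axis) against the percentage of probe sets in each bin, for all 8740 probe sets tested (grey) and the 201 probe sets of genes typical of other organs (purple line). Thin red lines mark the means of the 10 receptor probe sets and the dashed line the mean bound of the dim range, 6.08. Of the receptor probe sets, 8 lie to the left of the dashed line, among most of the other-organ genes.

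The position above the bound did not set Adra2a and Adra1d apart from every other-organ gene. With means of 7.09 and 6.65, U79031_at lay below 3 of the 201 other-organ probe sets and AF071014mRNA_s_at below 5. Those 3 were of Fabp6, an ileal bile acid-binding protein gene, at 10.41, Myh3, an embryonic myosin gene, at 7.76, and the dopamine receptor gene Drd3 at 7.72. Probe sets of the insulin genes Ins2 and Ins1 followed at 6.81 and 6.76. How bright a probe set is depends on its probes as well as on its transcript, so these positions give no order of abundance among receptor subtypes. Over the 10 receptor probe sets the median of the mean levels was 5.17, beside 4.59 over all probe sets and 4.32 over the other-organ probe sets.

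The intervals give the size of change that these arrays leave possible. The 95% intervals of the 10 probe sets ran from a ratio of ethanol to control of 0.595, for Adra2b, to 1.36, for Adra1a. For U79031_at of Adra2a the interval was 0.854 to 1.29, and for AF071014mRNA_s_at of Adra1d it was 0.701 to 1.30. For the dim probe set of Adrb1 it was 0.796 to 1.29. A value can hold background as well as transcript, in dim probe sets above all. The limit also applies to the 2 probe sets above the bound, since some other-organ probe sets were brighter. The bounds of all 10 therefore hold for the deposited values and not for the transcript. The standard errors of the receptor probe sets were 0.121 to 0.198, beside a median of 0.148 over all probe sets.

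**Figure D3:**
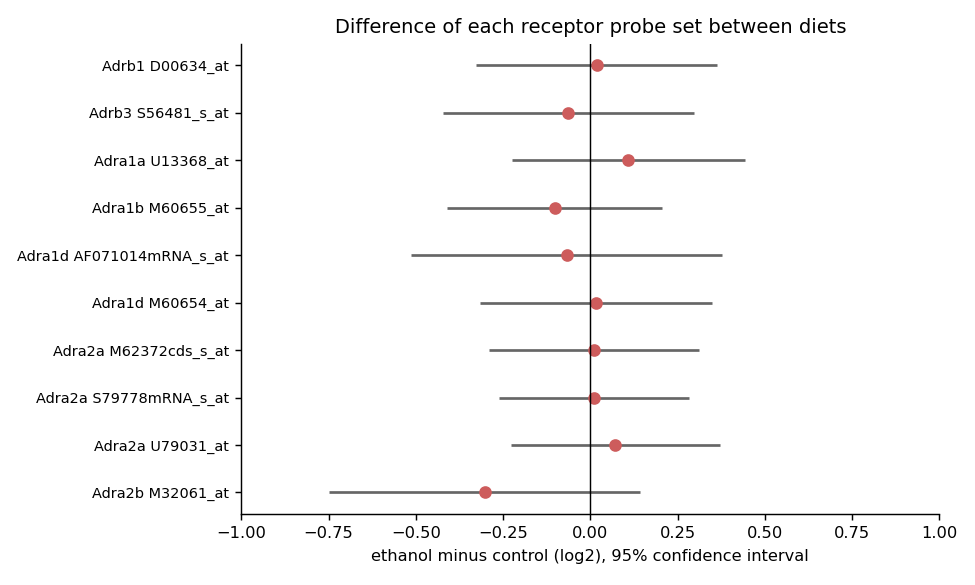
Difference in mean log2 value, ethanol minus control, of each receptor probe set (points) with its 95% confidence interval from limma (lines). All 10 intervals include 0, and that of Adra2b reaches furthest below it, to -0.75.

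For the receptor probe sets above the dim range, the named genes whose values followed them most closely over the 7 arrays were listed, out of 689 candidate probe sets above the bound. For Adra1d these were the endothelial adhesion gene Icam2 (Pearson r = 0.972, rc_AI639370_at), the lens transcription factor gene Foxe3 (r = 0.946, L13207_at) and the small GTPase gene Arl2 (r = 0.945, rc_AI177418_at). For Adra2a they were the urea transporter gene Slc14a2 (r = 0.959, AF031642_at), Cops7a, a subunit gene of the COP9 signalosome (r = 0.928, rc_AA875470_at), and the inhibin gene Inha (r = 0.914, M32754cds_s_at). These are the highest of many coefficients over 7 arrays that share their normalisation, and are given as a description without a test. The log2 differences of the 6 genes between diets were small, from -0.069 for Foxe3 to 0.12 for Slc14a2, with limma adjusted p of 0.971 to 0.995.

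The genes that make, carry and break down catecholamines and relay their signal were measured for 100 of 133 listed genes in 7 lists, with the brightest probe set standing for each gene. In limma, 0 of the 100 passed adjusted p under 0.05, against the 0.149% of all probe sets, and 3 were at unadjusted p under 0.05, beside 4.58% of all probe sets. The groups did not overlap in 5 of the 100, beside 5.24%. Differences were above 0 in 52 genes and below 0 in 48, with a median of 0.0028, beside -0.014 over all named genes.

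Among 13 genes of catecholamine synthesis, transport and breakdown, 10 had differences above 0 (median 0.078). Sult1a1, a phenol sulfotransferase that can conjugate catechols among many other phenols, was the furthest from 0, at 1.20 on the log2 scale (L19998_g_at, SE 0.254, limma adjusted p = 0.359), with the ethanol arrays above all controls. With array weights it passed in limma (adjusted p = 0.0397). With any array left out it did not pass, with limma adjusted p of 0.0796 without ethanol 2 and 0.980 without ethanol 3. Pnmt, which converts noradrenaline to adrenaline, lay at the bound with a mean of 6.12 and differed by -0.17 (adjusted p = 0.967). Th and Dbh, which encode the tyrosine and dopamine hydroxylases of noradrenaline synthesis, were in the dim range on all arrays, with means of 5.53 and 3.67 and differences of 0.011 and 0.11. The organic cation transporter genes Slc22a2 and Slc22a3 had differences of -0.23 and 0.19, each with adjusted p = 0.967.

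Among 18 G protein subunit genes, 9 had differences above 0 and 9 below (median -0.0056). Gnas, which encodes the stimulatory α subunit used by β receptors, was among the brightest, at 9.03 in the controls and 9.06 with ethanol, a log2 difference of 0.035 (95% confidence interval -0.59 to 0.66, limma adjusted p = 0.995). Gnai2, encoding an inhibitory α subunit used by α2 receptors, lay at 8.46 and 8.53, and differed by 0.078 (-0.27 to 0.43, adjusted p = 0.971). Both were above the dim range on all 7 arrays. The subunit genes Gng11, Gnb3 and Gng8, all dim on every array, had the lowest unadjusted p of the list, with differences of -0.31, -0.24 and -0.18 (limma adjusted p = 0.967 for each).

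Among 16 adenylyl cyclase and cyclic AMP phosphodiesterase genes the median difference was -0.068, and 2 lay above the dim range, Pde4a and Pde4c. These cyclic AMP-degrading enzyme genes had differences of -0.12 and 0.059. Adcy6, an adenylyl cyclase gene that exceeded the bound on 3 arrays, was at -0.29, and Pde3a at 0.18, all with limma adjusted p of 0.967 to 0.971. Among 17 protein kinase A and cyclic AMP response genes the median was -0.033. Prkar1a, a regulatory subunit gene of protein kinase A, had a difference of -0.46 (adjusted p = 0.967), and Pkia, encoding a protein kinase A inhibitor, -0.28 (adjusted p = 0.967). In both, all ethanol arrays lay below all controls, and in Pde3a they lay above them. The groups were separate in 5.24% of all probe sets. Prkar1a and Pkia were at unadjusted p under 0.05 in limma, beside 4.58% of all probe sets. The catalytic subunit gene Prkacb was at 0.33, and the transcription factor gene Crem, above the dim range, at 0.037.

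Among 13 genes of phospholipase C, inositol trisphosphate receptors and protein kinase C, through which α1 receptors signal, the median difference was 0.0021. Itpr3, the member above the dim range on all arrays, was at -0.12 (limma adjusted p = 0.967), and Prkcd, above it on 4, also at -0.12. Among 15 genes of receptor desensitisation and G protein signalling regulators the median was -0.065. The receptor kinase gene Grk6 and the regulator gene Rgs14, both above the dim range, were at -0.065 and -0.21, and Grk3, a further receptor kinase gene, was at -0.13.

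Among 8 genes of alveolar fluid transport, a process that β-adrenergic stimulation promotes, 6 had differences above 0. The median of the 8, 0.26, was the highest of the 7 lists. Whether these differences relate to β-adrenergic signalling was not tested. The sodium channel subunit genes Scnn1a and Scnn1b were at 0.50 (95% confidence interval -0.036 to 1.03) and 0.28 (-0.0057 to 0.57), and Atp1b1, a sodium pump subunit gene, at 0.39 (-0.057 to 0.83). Scnn1g, the gene of a further subunit of that channel, was at -0.10. In limma, 0 of the 8 passed adjusted p under 0.05 or unadjusted p under 0.05, and the lowest adjusted p was 0.967. The groups did not overlap in 1 of the 8, beside 5.24% of all probe sets. They overlapped in Scnn1a, Scnn1b and Atp1b1.

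**Figure D4:**
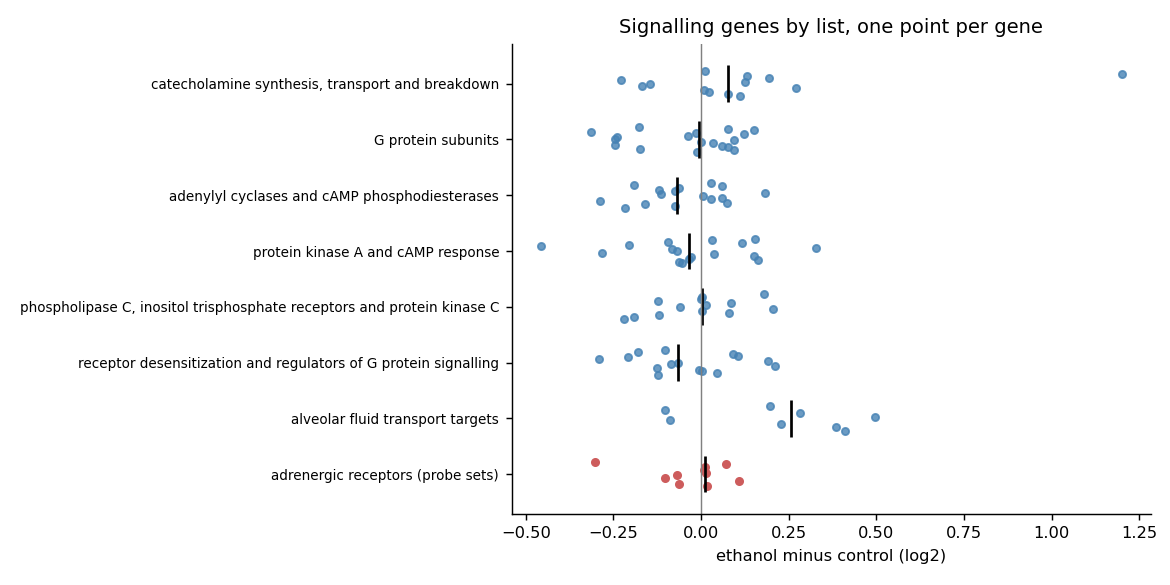
Difference in log2 value, ethanol minus control, of each measured gene (points) in 7 lists of catecholamine and adrenergic signalling genes (blue) and of the 10 receptor probe sets (red). Vertical bars are medians. The point furthest to the right is Sult1a1 at 1.20, and the receptor probe sets lie between -0.30 and 0.11.

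Markers of cells in which adrenergic receptors are well known were also read. Of 7 measured smooth muscle and pericyte markers, 1 lay above the dim range, Acta2, the smooth muscle actin gene, whose suffix _f_at marks probes shared within a gene family. Their mean level was 4.98 to 5.18 on control arrays and 4.92 to 5.00 on ethanol arrays. Of 5 endothelial and 7 neuronal markers, 0 lay above it. Endothelial markers had mean levels of 4.21 to 4.40 in controls and 4.08 to 4.32 with ethanol, and neuronal markers 4.73 to 5.08 and 4.74 to 4.94. In limma, 0 of these 19 markers passed adjusted p under 0.05, and 2, the smooth muscle gene Tagln and the synaptic gene Snap25, were at unadjusted p under 0.05, with differences of -0.28 and 0.30, beside 4.58% of all probe sets. The groups did not overlap in Tagln, Snap25 and Myh11, a smooth muscle myosin gene at -0.20, beside 5.24% of all probe sets. The ethanol arrays were the lower ones in Tagln and Myh11 and the higher ones in Snap25.

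Fibroblast markers were lower on average in the ethanol group without passing the test. Of 7 measured, 6 had differences below 0. In limma, 3 were at unadjusted p under 0.05, beside 4.58% of all probe sets. These were the collagen genes Col3a1 at -0.99, Col1a2 at -0.62 and Col1a1 at -0.50 (limma adjusted p = 0.967 for each). The 7 had mean levels of 4.84 to 5.44 on control arrays and 4.79 to 5.00 on ethanol arrays. The groups overlapped in all 3 collagen genes. Of 4 measured type 1 cell markers, 3 had differences above 0 and 1 below. In limma, 2 of them were at unadjusted p under 0.05, Pdpn at -0.47 and Cav1 at 0.58, beside 4.58% of all probe sets. The groups overlapped in both. Of 6 measured T and natural killer cell markers, all 6 had differences below 0 (median -0.092), with 0 at unadjusted p under 0.05 in limma. All ethanol arrays lay below all controls in 1 of the 6, Cd3d at -0.21. The groups were separate in 5.24% of all probe sets. Whether any receptor signal came from such cells was not tested.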

How the data were processed

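The authors deposited 1 value per probe set and array, 8799 in all, and from the range of the deposited values their unit was taken to be log2 expression, 1.65 to 12.84. Array means of 4.758 to 4.760 show a common scale, but how the authors corrected background, summarised probes and normalised is not stated in the labels or files. The number of arrays limits the precision. Probe sets for array controls (59) were not used. Of the other 8740, the annotation gave 1 symbol to 7006, several to 308 and none to 1426. By Entrez identifier, 6985 matched the GRCr8 RefSeq table, with 0 symbols changed. No coordinates or sequences were used.

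All 8740 probe sets were fitted across the whole table with limma 3.58.1 in R 4.3.3 (group as the term, empirical Bayes, two-sided, Benjamini-Hochberg adjustment, adjusted p under 0.05). The code was tested on simulated data. Receptors and gene lists were chosen with earlier results of these data known. All receptor probe sets were printed. Other genes printed were picked, some after their values were seen, from the 3 genes with the lowest p and the 2 with the highest mean of each pathway list, genes of known role in it, marker list genes, the other-organ probe sets with the highest means, and the 3 candidates most correlated with each receptor above the dim range. Alternatives were other normalisations, filters, variance models, weights per array, the replicate number as a block, leaving out arrays in turn, and other dim bounds. Statmod 1.5.0 served limma, and figures used matplotlib 3.10.9.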

Additional observations from a re-analysis of the deposited data

How the results depend on the processing

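Under quantile normalization, median centring, the dim filter, both other variance models, array weights, the replicate block and each array left out, 0 receptor probe sets passed in limma (lowest adjusted p = 0.533, Adra2b with array weights), with 1 at unadjusted p under 0.05, Adra2b without control 4, and 0 in the others. Of 137 recomputed receptor differences, 113 kept their sign and 24 changed it, all of them small and none past the threshold. The 113 include those under the dim filter and both other variance models, where the difference is the same by construction. Sign changes came with array weights for Adrb1 (-0.0056) and M62372cds_s_at of Adra2a (-0.024), with the replicate block, which sets the unpartnered control 1 aside and so gives the same differences as leaving it out (both are counted above), for M60654_at of Adra1d (-0.076), S79778mRNA_s_at (-0.026) and U79031_at (-0.015) of Adra2a, and with the gene's probe sets averaged for M60654_at (-0.026). With each array left out, Adrb1 ran from -0.066 to 0.14, Adrb3 from -0.18 to 0.044, Adra1a from -0.036 to 0.18, AF071014mRNA_s_at from -0.27 to 0.097, M60654_at from -0.076 to 0.12, M62372cds_s_at from -0.061 to 0.11, S79778mRNA_s_at from -0.060 to 0.096 and U79031_at from -0.015 to 0.14. Adra1b and Adra2b stayed below 0 in all alternatives. The receptor count above the dim range was 2, but 3 where 1 array above the bound sufficed, which added Adra2b, 0 with the bound at the highest other-organ probe set and 6 with the bound at the array median, which added Adrb3, Adra1b, Adra2b and S79778mRNA_s_at. Of the pathway genes, 1 passed with array weights (Sult1a1, adjusted p = 0.0397) and 1 with the replicate block (Sult1a1, adjusted p = 0.0241). Over all probe sets the count of 13 became 2 of 1284 with the dim filter, 23 with the replicate block, and 0 without variance moderation (367 at unadjusted p under 0.05). The 400 probe sets at unadjusted p under 0.05 became 1035 with array weights, 710 with the replicate block, 789 without control 4, 231 without control 3, 261 without ethanol 3 and 56 of 1284 with the dim filter. Replicate numbers 2, 3 and 4 occur in both groups, but no label states that they pair animals, so they were not taken as pairs. Deviations of same-numbered arrays correlated at 0.43, 0.067 and 0.43, beside -0.53 to 0.35 for arrays of different numbers. Whether the numbers pair animals was not tested. Brightness limits the dim probe sets, in which a change could be missed.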
